A study of Mus musculus with 9 samples.

Results

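The genes described are 58 listed genes of G2 phase and mitosis, chosen by symbol from a list of mitotic regulators, of which 56 were among the 14940 gene symbols of the deposited table. The list was chosen with earlier results of these data known. Ccnb1 and Cks2 were not analysed here. RNA came from LSK cells of C57BL/6 mice, a bone marrow fraction sorted for Sca1 and cKit and against mature lineage markers, which holds hematopoietic stem cells and multipotent progenitors. The 3 groups held 3 mice each. Naive mice were not immunized. EAE mice were taken 3 days after immunization with MOG35-55, a myelin peptide, in complete Freund's adjuvant, which induces experimental autoimmune encephalomyelitis. Treated mice were immunized in the same way and were given SR59230A, an antagonist of the β3-adrenergic receptor, over those 3 days. No group received the adjuvant alone, and neither a vehicle for the EAE mice nor the age or sex of any mouse is stated in the labels. The series addresses whether adrenergic signalling takes part in the response of hematopoiesis to immunization.

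A dividing cell passes from G2 into mitosis when CDK1, bound to cyclins and freed from inhibitory phosphate by CDC25 phosphatases, phosphorylates its targets. Aurora and polo-like kinases then build the spindle, the checkpoint holds anaphase until every kinetochore is attached, and the anaphase-promoting complex degrades securin and cyclin B. Most of these genes are transcribed mainly in G2, through the DREAM, B-MYB and FOXM1 complexes, so their RNA is low in resting cells. Most hematopoietic stem cells are quiescent, and progenitors divide more often.

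The deposited values are whole numbers that the authors had adjusted, so they were treated as a score and not as read counts, and the sequencing depth is unknown. Values below are these numbers after division by a scaling factor for each library, and they are not corrected for gene length, so levels are compared between mice and not between genes. Differences are log2 fold changes of the scaled value plus 1, with their standard error (SE), from limma-trend over all 9 libraries, and a gene was called at a Benjamini-Hochberg adjusted p under 0.05 over the 13018 genes tested. The labels describe the samples as separate mice. All 56 genes passed the filter on low values. Both genes that define the sort were present in every library, and both moved with the groups. Kit was at 6547 to 7235 in naive, 4846 to 5286 in EAE and 4949 to 5158 in treated mice, lower than in naive mice in both (-0.43 and -0.45 on the log2 scale, adjusted p = 0.0115 and 0.00961). Ly6a, which encodes Sca1, was at 1412 to 1741, 1881 to 2379 and 2339 to 2539, higher than in naive mice in both (0.46 and 0.68, adjusted p = 0.0226 and 0.00335). The groups also differed in features that are not mitotic. Genes of olfactory, vomeronasal and trace amine receptors, 1104 in all, took 0.146% to 0.175% of all values in naive libraries, 0.103% to 0.117% in EAE libraries and 0.0774% to 0.0960% in treated libraries.

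In EAE mice, 27 of the 56 genes rose and none fell against naive mice, while 29 did not pass the test. Of all genes tested, 9.13% were called higher and 5.1% lower. The median log2 fold change of the 56 genes was 0.35, against a median of -0.00 over all genes, and single genes ranged from -0.38 to 0.62. The fold of group means among the 27 called genes was 1.24 to 1.54. In 41 of the 56 genes all 3 EAE libraries lay above all 3 naive libraries, a separation found in 21.0% of all genes, and 51 of the 56 fold changes were above 0, against 49.6% of all genes. Together the 56 genes took 0.4998% to 0.5367% of all values in naive libraries, 0.580% to 0.615% in EAE libraries and 0.561% to 0.573% in treated libraries, and no 2 groups overlapped. In these bulk samples, more dividing cells and more RNA in each dividing cell cannot be told apart.

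The libraries of each group lay close to each other in the adjusted values. These values lack 2 directions of variation, which lie almost wholly within groups, so the spread between replicates may be understated. The median deviation of the 56 genes from their mean over the 9 libraries was -0.23, -0.20 and -0.18 on the log2 scale in the naive mice, 0.15, 0.09 and 0.17 in the EAE mice and 0.06, 0.07 and 0.06 in the treated mice. Each naive median lay below every EAE and treated median. The highest of the 9 values of a gene was in EAE replicate 1, 2 or 3 for 15, 9 and 19 genes, in treated replicate 1, 2 or 3 for 4, 2 and 6, and in naive replicate 2 for 1. Of the 27 calls, 18 held without each library in turn, and those that did not are named below. Only 10 of the 27 held in every alternative fit other than that with the chemosensory receptor share. They were Aurka, Birc5, Ccna2, Cdca3, Cdca8, Kif20a, Kif20b, Kif2c, Nek2 and Plk1. The other 17 were lost without scaling, and some of them in further fits. With the chemosensory receptor share of each library as a further term, 0 of the 56 genes and 96 of all genes were called. Without scaling 10 of the 56 genes were called, and without the covariates for missing directions 42. With the chemosensory term 26 of the 27 called genes still had fold changes above 0, with a median of 0.43 against 0.47, and their median SE was 0.26 against 0.10. These 27 were picked by their calls in the fit without that term. Over all 56 genes, 46 fold changes were above 0 with the term, against 51 without it, and the median was 0.35 in both. Single genes moved more: the range was -1.01 (Pttg1) to 1.20 (Aurka) with the term, against -0.38 to 0.62 without it. The share did not overlap between the groups, so the term and the group differences cannot be fully told apart.

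**Figure D1:**
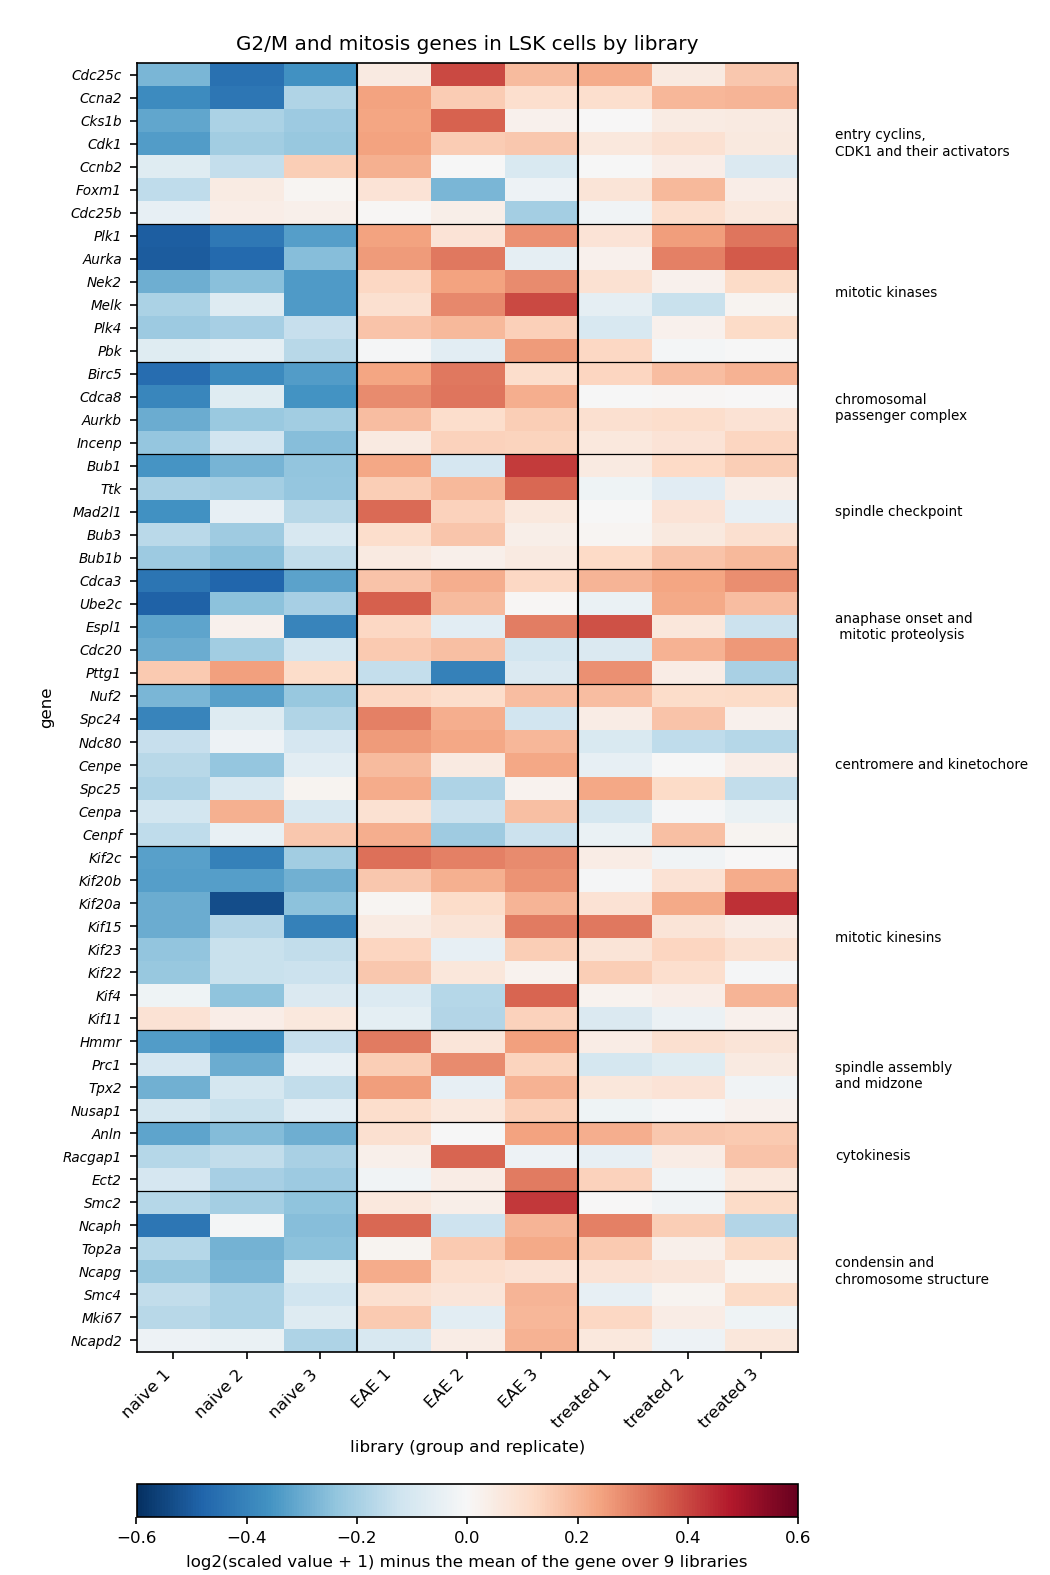
Heat map of the 56 genes (rows, by role) in the 9 libraries (columns), coloured by log2(scaled value + 1) minus the mean of the gene over all libraries. The naive columns are mostly below the mean of a gene, with medians of -0.23 to -0.18, and the EAE columns mostly above it, with medians of 0.09 to 0.17.

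The promoters of these genes share sequence that the choice of genes did not use. Windows from 250 bases before to 50 bases after the transcription start were taken from RefSeq on GRCm38.p6, a build that the submitters' notes do not name, and 46 of the 56 genes matched, with 49 windows. The core of the cell cycle homology region, TTTGAA, is a motif through which DREAM and FOXM1 complexes are known to bind, and CCAAT is bound by NF-Y. On either strand, TTTGAA stood in 75.5% of these windows, against 17.9% of 32851 windows of all genes, and CCAAT in 73.5% against 37.4%. Both stood in 65.3%, against 6.95%. The variant TTCGAA was in 8.16% against 1.56%, and any of the E2F strings TTTCCCGC, TTTGGCGC and TTTCGCGC in 8.16% against 1.84%. Among 84 windows of other mitotic genes, TTTGAA stood in 39.3%, CCAAT in 64.3% and both in 26.2%. Among 32 windows of DNA replication genes, which act in S phase, TTTGAA stood in 12.5%, CCAAT in 59.4% and an E2F string in 40.6%. Of the genes with a window, TTTGAA was found in 16 of 23 that rose in EAE and in 18 of 23 others, CCAAT in 14 and 19, and both in 12 and 17, splits that were not tested. The 5 windows below were picked by motif and by fold change in EAE, among genes with a single window. They are called genes with the largest rise, with both motifs or with neither, and the gene with both and the lowest fold change. Plk1, Cdca3 and Aurka rose and carry both motifs, Birc5 rose and carries neither, and Kif11 carries both and did not pass the test. Capitals mark CCAAT and TTTGAA, or their reverse complements ATTGG and TTCAAA. The windows are Plk1 at chr7:122159185-122159484 on the plus strand, Cdca3 at chr6:124829926-124830225 on the plus strand, Aurka at chr2:172370521-172370820 on the minus strand, Birc5 at chr11:117848987-117849286 on the plus strand and Kif11 at chr19:37376132-37376431 on the plus strand.
Plk1: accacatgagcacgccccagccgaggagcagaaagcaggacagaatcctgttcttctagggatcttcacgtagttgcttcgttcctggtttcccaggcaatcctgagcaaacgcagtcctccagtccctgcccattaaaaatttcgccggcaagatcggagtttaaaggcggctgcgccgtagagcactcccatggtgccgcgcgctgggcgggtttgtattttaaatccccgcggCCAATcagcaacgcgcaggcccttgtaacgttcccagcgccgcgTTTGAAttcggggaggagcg
Cdca3: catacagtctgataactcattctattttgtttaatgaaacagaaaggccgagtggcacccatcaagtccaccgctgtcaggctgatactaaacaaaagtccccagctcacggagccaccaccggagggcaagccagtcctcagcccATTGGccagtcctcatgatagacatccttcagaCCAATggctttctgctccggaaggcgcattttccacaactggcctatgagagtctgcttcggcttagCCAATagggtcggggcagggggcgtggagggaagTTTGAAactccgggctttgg
Aurka: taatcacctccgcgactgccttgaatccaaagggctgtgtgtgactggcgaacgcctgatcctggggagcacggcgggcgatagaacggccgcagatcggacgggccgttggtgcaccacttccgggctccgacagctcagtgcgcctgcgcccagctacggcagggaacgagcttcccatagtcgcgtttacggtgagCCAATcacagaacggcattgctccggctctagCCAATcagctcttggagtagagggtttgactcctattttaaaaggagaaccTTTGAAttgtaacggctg
Birc5: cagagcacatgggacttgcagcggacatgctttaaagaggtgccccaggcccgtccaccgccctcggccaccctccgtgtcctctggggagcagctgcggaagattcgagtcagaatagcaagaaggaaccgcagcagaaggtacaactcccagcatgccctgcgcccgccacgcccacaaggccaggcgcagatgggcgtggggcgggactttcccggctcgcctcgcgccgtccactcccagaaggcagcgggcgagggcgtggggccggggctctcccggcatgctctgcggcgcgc
Kif11: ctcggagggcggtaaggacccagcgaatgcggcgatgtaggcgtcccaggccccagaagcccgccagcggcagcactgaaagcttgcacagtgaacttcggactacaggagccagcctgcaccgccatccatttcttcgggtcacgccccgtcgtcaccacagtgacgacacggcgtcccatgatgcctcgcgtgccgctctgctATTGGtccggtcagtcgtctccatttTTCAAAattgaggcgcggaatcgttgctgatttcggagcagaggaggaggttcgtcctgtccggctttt
Counted from the transcription start, TTTGAA began at 31 in Plk1 and in Cdca3 and at 33 in Aurka, while in Kif11 its reverse complement lay at -19. This position did not separate called from uncalled genes. In Cdk1 and Top2a, which rose, the matches on either strand lay before the start. In Ndc80 and Spc25, which were not called, they lay after it. A match is a run of letters and was not tested for binding.

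**Figure D2:**
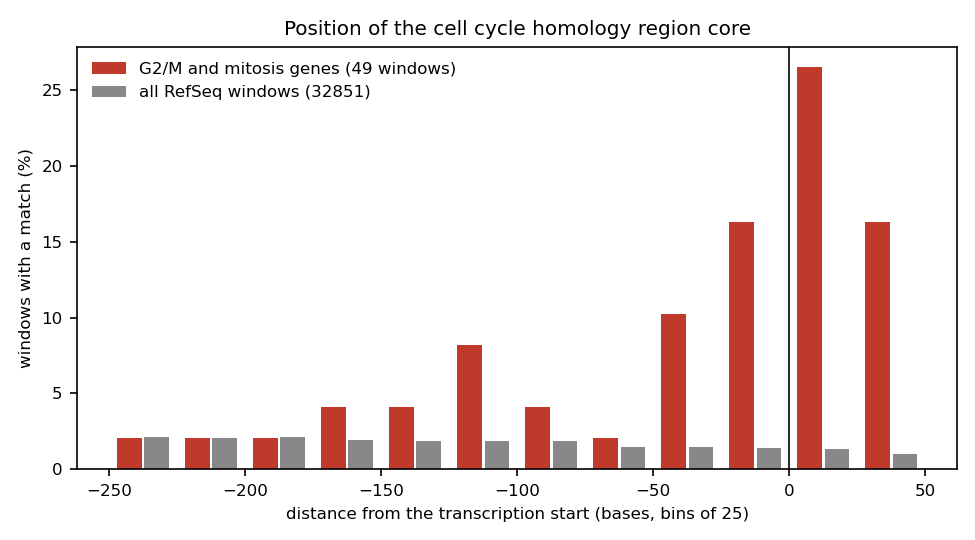
Share of promoter windows (vertical axis, %) with TTTGAA in bins of 25 bases, by distance from the transcription start (horizontal axis, bases), for the G2/M and mitosis genes and for all genes. In the bin from 0 to 25 bases after the start, 26.5% of the 49 windows, from 46 of the 56 genes, held the motif, against 1.31% of all windows.

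Of the 7 genes that drive entry into mitosis, 3 rose in EAE (median log2 fold change 0.44.) Ccna2, which encodes cyclin A2 and acts from S phase into mitosis, was at 1724, 1658 and 1976 in naive mice and 2651, 2491 and 2404 in EAE mice. The groups did not overlap, and the log2 fold change was 0.50 ± 0.10 (SE, adjusted p = 0.00644). Cdk1, the kinase itself, was at 989, 1081 and 1069 in naive mice and 1477, 1391 and 1398 in EAE mice, and rose by 0.44 ± 0.09 (adjusted p = 0.00635). Cks1b, a small subunit that binds CDK1, was at 1410, 1536 and 1507 against 2067, 2241 and 1783, and rose by 0.45 ± 0.10 (adjusted p = 0.0131), but a near copy, Cks1brt, could share its reads. Cdc25c, the phosphatase that activates CDK1 at mitotic entry, was at 76.02, 67.3 and 71.4 against 95.7, 122 and 105. Its values did not overlap, but it did not pass (0.58 ± 0.18, adjusted p = 0.0515). Its relative Cdc25b overlapped between the groups, at 397, 423 and 420 against 413, 422 and 356 (-0.06 ± 0.11, adjusted p = 0.75). Ccnb2, cyclin B2, and Foxm1, the transcription factor, also overlapped, with differences of 0.06 ± 0.12 and -0.04 ± 0.16 (adjusted p = 0.764 and 0.878).

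Of the 6 mitotic kinases 5 rose (median log2 fold change 0.49.) Plk1, which acts from centrosome maturation to cytokinesis, was at 364, 381 and 408 in naive mice and 607, 543 and 621 in EAE mice. The fold of means was 1.54 and the log2 fold change 0.62 ± 0.11 (adjusted p = 0.00397). Aurka, the kinase of centrosomes and spindle poles, was at 569, 582 and 675 against 963, 1003 and 776, and rose by 0.58 ± 0.13 (adjusted p = 0.0136). Nek2, a kinase of centrosome separation, was at 471, 485 and 456 against 628, 682 and 704, and rose by 0.51 ± 0.10 (adjusted p = 0.00553). Plk4, which starts centriole duplication, rose by 0.36 ± 0.09 (adjusted p = 0.0268), and Melk, a kinase that peaks in mitosis, by 0.47 ± 0.13 (adjusted p = 0.0304). Plk4 did not pass without naive replicate 1 (adjusted p = 0.0553, 0.00325 to 0.323 over all alternatives), and Melk did not pass without naive replicate 1 or 3 (adjusted p = 0.0536 and 0.0538, 0.00641 to 0.881 over all alternatives). Pbk, a mitotic kinase found in proliferating cells, was the exception, at 284, 287 and 267 against 297, 287 and 357. Its groups met at 287, and the difference was 0.16 ± 0.13 (adjusted p = 0.428).

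All 4 genes of the chromosomal passenger complex rose (median log2 fold change 0.47.) This complex corrects wrong attachments of chromosomes and later helps cytokinesis. Birc5, survivin, was at 982, 1033 and 1067 in naive mice and 1587, 1678 and 1449 in EAE mice. Its fold of means was 1.53, and its log2 fold change was 0.61 ± 0.09 (adjusted p = 0.00155). Aurkb, the kinase of the complex, was at 686, 723 and 731 against 959, 910 and 935, and rose by 0.39 ± 0.09 (adjusted p = 0.0124). Cdca8, borealin, was at 627, 783 and 642 against 1002, 1030 and 959, and rose by 0.55 ± 0.10 (adjusted p = 0.00577), with groups that did not overlap. Incenp, the scaffold, was at 1311, 1419 and 1288 against 1599, 1696 and 1685. It rose by 0.31 ± 0.09 (adjusted p = 0.0337), but did not pass without naive replicate 1 or 3 (adjusted p = 0.0665 and 0.0518, 0.00365 to 0.764 over all alternatives).

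In the spindle checkpoint 3 of 5 genes rose (median log2 fold change 0.38.) Ttk, the kinase MPS1 that starts the checkpoint signal, was at 349, 347 and 340 in naive mice and 442, 458 and 508 in EAE mice, and rose by 0.44 ± 0.11 (adjusted p = 0.0174). Bub1, a checkpoint kinase, was at 200, 210 and 217 against 301, 238 and 343. It rose by 0.48 ± 0.15 (adjusted p = 0.0493), but did not pass without naive replicate 1 or 2 or EAE replicate 1 or 3 (adjusted p = 0.0573 to 0.102, 0.00743 to 0.802 over all alternatives). Mad2l1, an inhibitor of the anaphase-promoting complex, rose by 0.38 ± 0.11 (adjusted p = 0.0466), but did not pass without naive replicate 1 or EAE replicate 1 or 2 (adjusted p = 0.0557 to 0.124, 0.0146 to 0.821 over all alternatives). Bub1b, the checkpoint protein BUBR1, was at 1325, 1296 and 1395 against 1602, 1575 and 1600, groups that did not overlap, and missed the threshold (0.25 ± 0.08, adjusted p = 0.0674). Bub3, its partner, was at 2072 to 2251 against 2467 to 2698 and missed it too (adjusted p = 0.0674).

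Of 5 genes of anaphase onset and mitotic proteolysis 2 rose (median log2 fold change 0.35.) Cdca3, an F-box protein that promotes mitotic entry, was at 760, 739 and 824 in naive mice and 1159, 1196 and 1123 in EAE mice. Its fold of means was 1.497 and its log2 fold change 0.59 ± 0.09 (adjusted p = 0.00164). Ube2c, the ubiquitin-conjugating enzyme of the anaphase-promoting complex, was at 938, 1107 and 1142 against 1682, 1496 and 1316. It rose by 0.50 ± 0.12 (adjusted p = 0.0208), but did not pass without naive replicate 1 (adjusted p = 0.0624, 0.00766 to 0.331 over all alternatives). Pttg1, securin, which the complex degrades to release separase, was at 181, 193 and 176 against 147, 123 and 153. It was the one gene of the 56 with all EAE libraries below all naive ones, a separation found in 18.4% of all genes, and it did not pass (-0.38 ± 0.17, adjusted p = 0.15). Espl1, separase, overlapped between the groups (0.35, adjusted p = 0.185). Cdc20, an activator of the complex, was at 684 to 780 in naive mice and 780 to 955 in EAE mice (adjusted p = 0.156).

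Of 7 centromere and kinetochore genes, 1 rose (median log2 fold change 0.31.) Nuf2, a subunit of the NDC80 complex that grips microtubules, was at 538, 518 and 556 in naive mice and 709, 700 and 740 in EAE mice, and rose by 0.42 ± 0.09 (adjusted p = 0.0121). Ndc80, the subunit after which the complex is named, was at 132, 142 and 135 against 173, 171 and 167. These groups did not overlap, but the difference was not called (0.32 ± 0.14, adjusted p = 0.151). The partners Spc24 and Spc25 were not called (adjusted p = 0.092 and 0.658). Cenpe, a kinetochore motor, missed the threshold (0.31, adjusted p = 0.0549), and Cenpa, the centromeric histone, was at 635 to 794 against 626 to 776 (adjusted p = 0.833). Cenpf, a kinetochore protein that peaks in G2, had the lowest fold change of the group, at 709, 764 and 880 against 916, 678 and 720 (-0.03 ± 0.13, adjusted p = 0.904).

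Among the 8 mitotic kinesins 4 rose (median log2 fold change 0.35.) Kif2c, which takes microtubules apart at the centromere, was at 315, 299 and 342 in naive mice and 497, 487 and 482 in EAE mice. Its fold of means was 1.53 and its log2 fold change 0.62 ± 0.10 (adjusted p = 0.00295). Kif20b, a cytokinesis kinesin, was at 1166, 1167 and 1201 against 1640, 1700 and 1766, and rose by 0.53 (adjusted p = 0.00329). Kif20a, which brings the passenger complex to the midzone, rose by 0.47 (adjusted p = 0.021). Kif15, a spindle kinesin, rose by 0.44 (adjusted p = 0.0433), but did not pass without naive replicate 1 or 3 or EAE replicate 3 (adjusted p = 0.0577 to 0.077, 0.0109 to 0.907 over all alternatives). Kif11, the motor that separates the spindle poles, was at 628, 607 and 618 against 568, 523 and 651, which overlapped (-0.10 ± 0.11, adjusted p = 0.592). Kif4 and Kif22, both with pseudogene copies, and Kif23 were not called (adjusted p = 0.575, 0.152 and 0.0921).

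Spindle assembly, cytokinesis and chromosome structure held 5 more calls. Of 4 spindle genes 2 rose. Hmmr, a spindle-pole protein, was at 493, 481 and 566 in naive mice and 773, 654 and 738 in EAE mice, and rose by 0.49 ± 0.11 (adjusted p = 0.0115). Prc1, the bundler of midzone microtubules, rose by 0.34 (adjusted p = 0.0499), but did not pass without naive replicate 1 or 2 or EAE replicate 2 (adjusted p = 0.0656 to 0.083, 0.0115 to 0.172 over all alternatives). Nusap1, which stabilizes spindle microtubules, was at 887, 872 and 913 against 1028, 999 and 1054, groups that did not overlap, and was not called (0.21 ± 0.09, adjusted p = 0.135). Tpx2, an activator of Aurora A, was not called (0.32, adjusted p = 0.0763). Of 3 cytokinesis genes Anln, anillin, rose, at 650, 675 and 661 against 864, 808 and 956 (0.40 ± 0.10, adjusted p = 0.0169). Ect2, which acts at the cleavage furrow, was at 773, 723 and 713 against 818, 856 and 1029 (0.29 ± 0.11, adjusted p = 0.105), and Racgap1, its binding partner, was not called (adjusted p = 0.123).

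Of 7 genes of condensin and chromosome structure, 2 rose (median log2 fold change 0.33.) Top2a, the topoisomerase that untangles sister chromatids, was at 2172, 2008 and 2062 in naive mice and 2475, 2733 and 2866 in EAE mice. It rose by 0.37 ± 0.09 (adjusted p = 0.0216), but did not pass without scaling or with upper-quartile scaling (adjusted p = 0.0725 and 0.0608). Smc2, a condensin core subunit, was at 837, 820 and 798 against 986, 966 and 1264. It rose by 0.38 ± 0.11 (adjusted p = 0.0466), but did not pass without any one naive replicate (adjusted p = 0.0612 to 0.0721, 0.015 to 0.818 over all alternatives). Mki67, which encodes the proliferation marker Ki-67, was at 1870, 1844 and 1989 against 2342, 2008 and 2410. The groups did not overlap, but the difference did not pass the test (0.24 ± 0.10, adjusted p = 0.129). Smc4 and Ncapg, condensin subunits, had adjusted p of 0.0602 and 0.0574. Ncapd2, another condensin subunit, overlapped between the groups, at 3611, 3587 and 3239 against 3451, 3797 and 4262 (0.14 ± 0.10, adjusted p = 0.413), and so did Ncaph (adjusted p = 0.212).

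**Figure D3:**
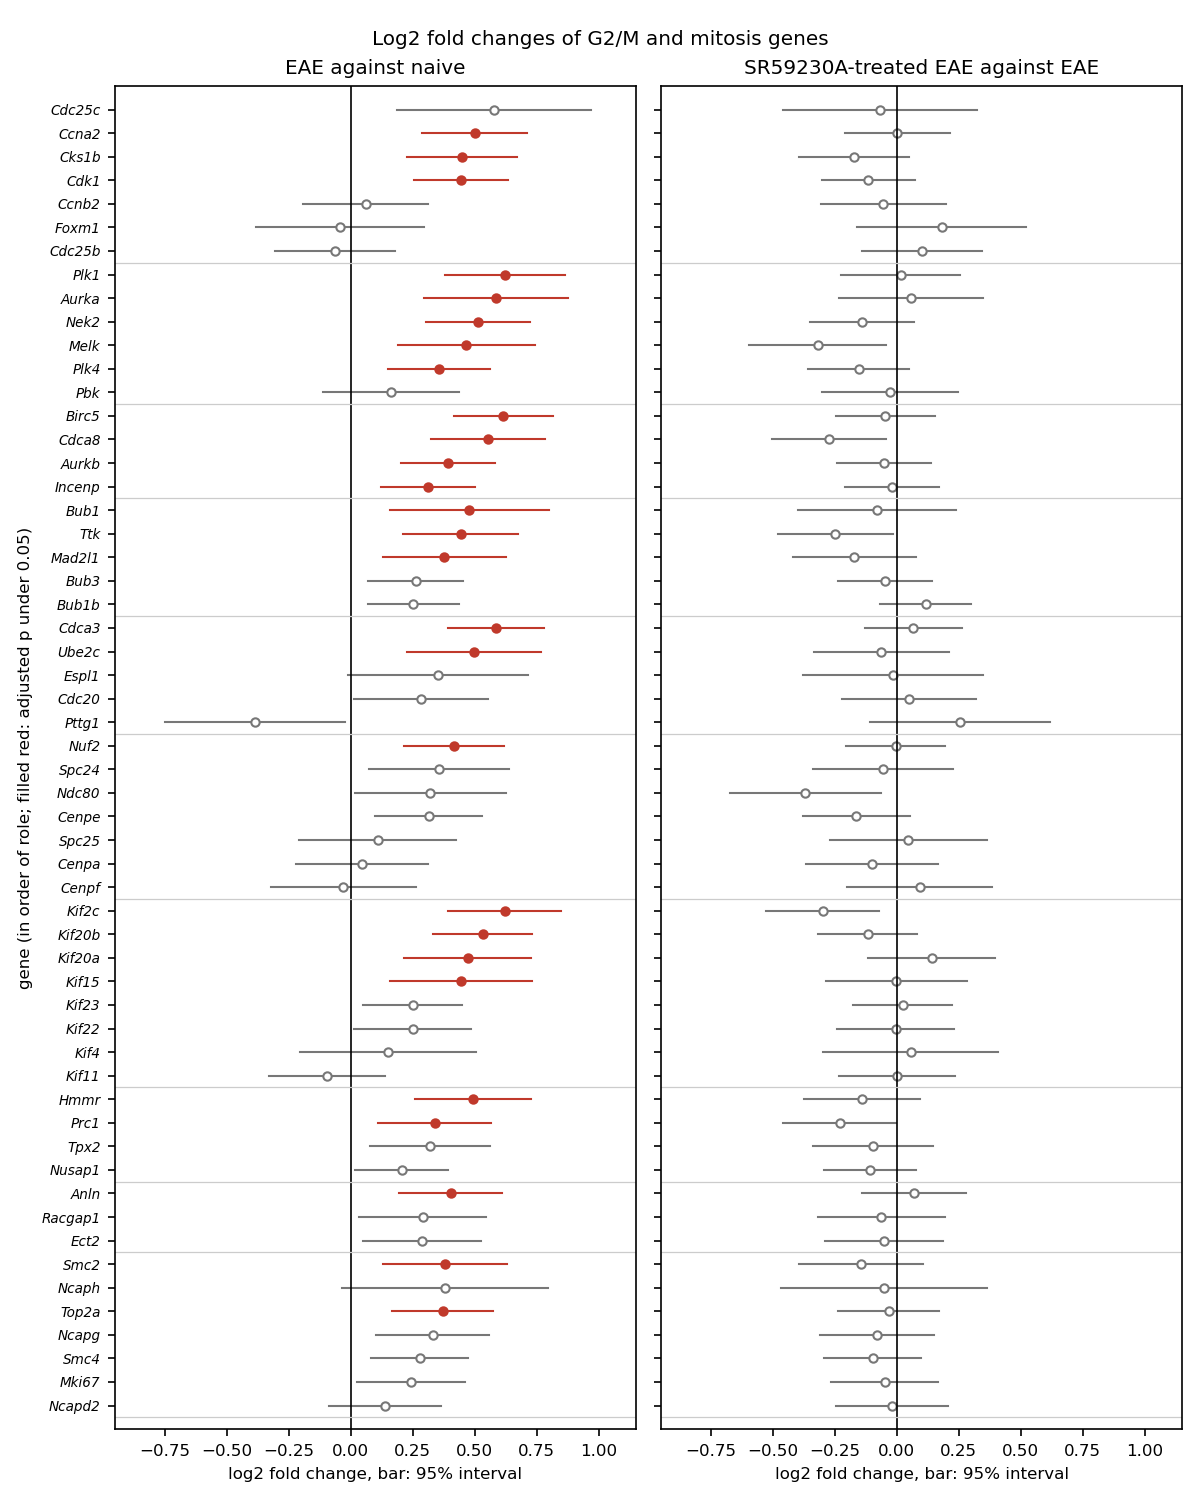
Log2 fold change (horizontal axis) of each of the 56 genes (vertical axis, by role) in EAE against naive and in treated against EAE mice. Bars are 95% intervals, and called genes are filled. In EAE against naive mice 27 genes are filled and 51 lie above 0, while in treated against EAE mice none is filled.

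Some members share sequence with other genes, and whether the authors' counting used strand is not stated. By GENCODE M21, exons of 11 of the 56 lie opposite those of another coding gene, among them 5 that rose: Ccna2, Cdca8, Kif20a, Prc1 and Ube2c. Exons of Foxm1 overlap those of the coding genes Tex52 and Gm44596 on the same strand, and neither was among the genes tested. Near copies could share reads with Cks1b, Kif4, Kif22 and Ccnb2.

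Further mitotic and replication genes, taken from lists chosen with earlier results of these data known, had calls in the same direction. Of 85 other mitotic genes tested, 18 rose (21.2%), none fell and 67 did not pass, with a median log2 fold change of 0.26. Those called with the largest changes were Zwilch (0.67 ± 0.14), which acts in the checkpoint, Cdca5 (0.65 ± 0.12), the cohesion protein sororin, Bora (0.63 ± 0.11), an activator of Aurora A and PLK1, Cenpi (0.58 ± 0.12), a centromere protein, and Casc5 (0.57 ± 0.11), a kinetochore scaffold now named Knl1. For Cdca5 the naive values were 1121, 1180 and 1024 and the EAE values 1499, 1988 and 1750. Bora was at 593, 574 and 576 against 814, 879 and 1011. In neither gene did the groups overlap. Of 33 DNA replication genes 11 rose (33.3%), none fell and 22 did not pass, with a median of 0.30. Over all genes tested the shares were 9.13% higher and 5.1% lower, and the median was -0.00.

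Markers of some other states and cell types also differed between the groups. The summed value of granulocyte-monocyte progenitor markers (9 of 10 listed were in the table) was 3710 to 4548 in naive mice, 17746 to 23622 in EAE mice and 18317 to 19908 in treated mice, and 8 of the 9 rose in EAE. The sum of stem cell markers (7 of 9 in the table) was 5858 to 6719, 2992 to 3102 and 3076 to 3397, and 5 of the 7 fell. In the same order of groups, erythroid markers (9 of 11) summed to 9494 to 10361, 4613 to 4945 and 5718 to 6152, and mature neutrophil markers (9 of 9) to 2255 to 5933, 2986 to 15105 and 6917 to 15310. The erythroid sum was mostly Car2, carbonic anhydrase 2, with group means of 8312, 3122 and 3547, and the other markers did not all follow it. Of 8 erythroid markers tested, 2 rose and 2 fell in EAE against naive mice (median log2 fold change -0.34, 5 of 8 below 0). In treated against naive mice 3 rose and 1 fell (median 0.55, 7 of 8 above 0). B cell markers (5 of 6) stood at 908 to 1163, 770 to 902 and 948 to 1028, and T and NK cell markers (5 of 7) at 169 to 258, 251 to 286 and 263 to 307, with Cd8a and Ncr1 at 0 in at least 1 library. Macrophage markers (4 of 6) summed to 16.1 to 141, 20.8 to 49.7 and 34.6 to 46.9, with C1qb at 0 in at least 1 library. In EAE against naive mice, 1 of 9 mature neutrophil markers and 1 of 3 T and NK cell markers tested rose. Of 4 B cell markers tested 1 fell, and no macrophage marker was called. Megakaryocyte markers (5 of 5) summed to 922 to 981, 1104 to 1381 and 1092 to 1346, and stromal and endothelial markers (7 of 8) to 2643 to 3424, 2667 to 3626 and 3307 to 3820, with Cxcl12 at 0 in at least 1 library. Each of these sums also followed a single gene. Itga2b, with group means of 727, 1082 and 1071, was the one megakaryocyte marker that rose in EAE, while the other 4 of the 5 had fold changes below 0 (median of the list -0.54). Pecam1, with means of 2417, 2983 and 3276, dominated the stromal and endothelial sum, while 4 of the 5 tested had fold changes below 0 (median -0.98) and 2 fell. The part of these markers, and of the chemosensory receptor share, in the differences of the mitotic genes was not tested.

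Between treated and EAE mice, none of the 56 genes was called by limma-trend, in a comparison in which 0.00768% of all genes were. At an unadjusted p under 0.05, 6 genes were lower and none higher, against 1.64% of all genes lower and 2.23% higher. These 6 were Kif2c, Ndc80, Cdca8, Melk, Ttk and Prc1. The median log2 fold change of the 56 genes was -0.05, against 0.01 over all genes, and the range was -0.37 to 0.26. The fold change was below 0 in 41 of the 56 and above it in 15, against 52.5% of all genes above it. In 12 genes all treated libraries lay below all EAE libraries, a separation found in 7.71% of all genes, and Bub1b alone had all treated libraries above, as did 8.46% of all genes. The unadjusted 95% interval lay within 0.5 to either side of 0 for 50 of the 56 genes, with bounds from -0.67 to 0.62 over all of them, so the lack of a call does not show that the groups were alike.

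The 4 genes with the lowest unadjusted p in this comparison all had lower values in treated mice. Kif2c was at 408, 389 and 395 in treated mice, below the 497, 487 and 482 of EAE mice and above every naive mouse, a log2 difference of -0.30 ± 0.10 (95% interval -0.53 to -0.07). Cdca8 was at 823, 829 and 826, also between the EAE and naive values (-0.27 ± 0.10, interval -0.50 to -0.04). Neither gene passed after adjustment. Ndc80 was at 136, 130 and 129, within or below the naive range of 132 to 142 (-0.37 ± 0.14, interval -0.67 to -0.06), and Melk was at 321, 304 and 338 against 357, 408 and 439 (-0.32 ± 0.13, interval -0.60 to -0.04). All adjusted p in this comparison were 0.998 or more among the 56 genes. Of other genes with a large rise in EAE, some also had all treated libraries below all EAE libraries. These included Nek2 (-0.14 ± 0.10), Cdk1 (-0.11 ± 0.09) and Ttk (-0.25 ± 0.11). Some others were near their EAE values. Plk1 was at 543, 610 and 641 (0.02 ± 0.11), Ccna2 at 2407, 2571 and 2584 (0.00 ± 0.10) and Birc5 at 1474, 1531 and 1558 (-0.05).

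**Figure D4:**
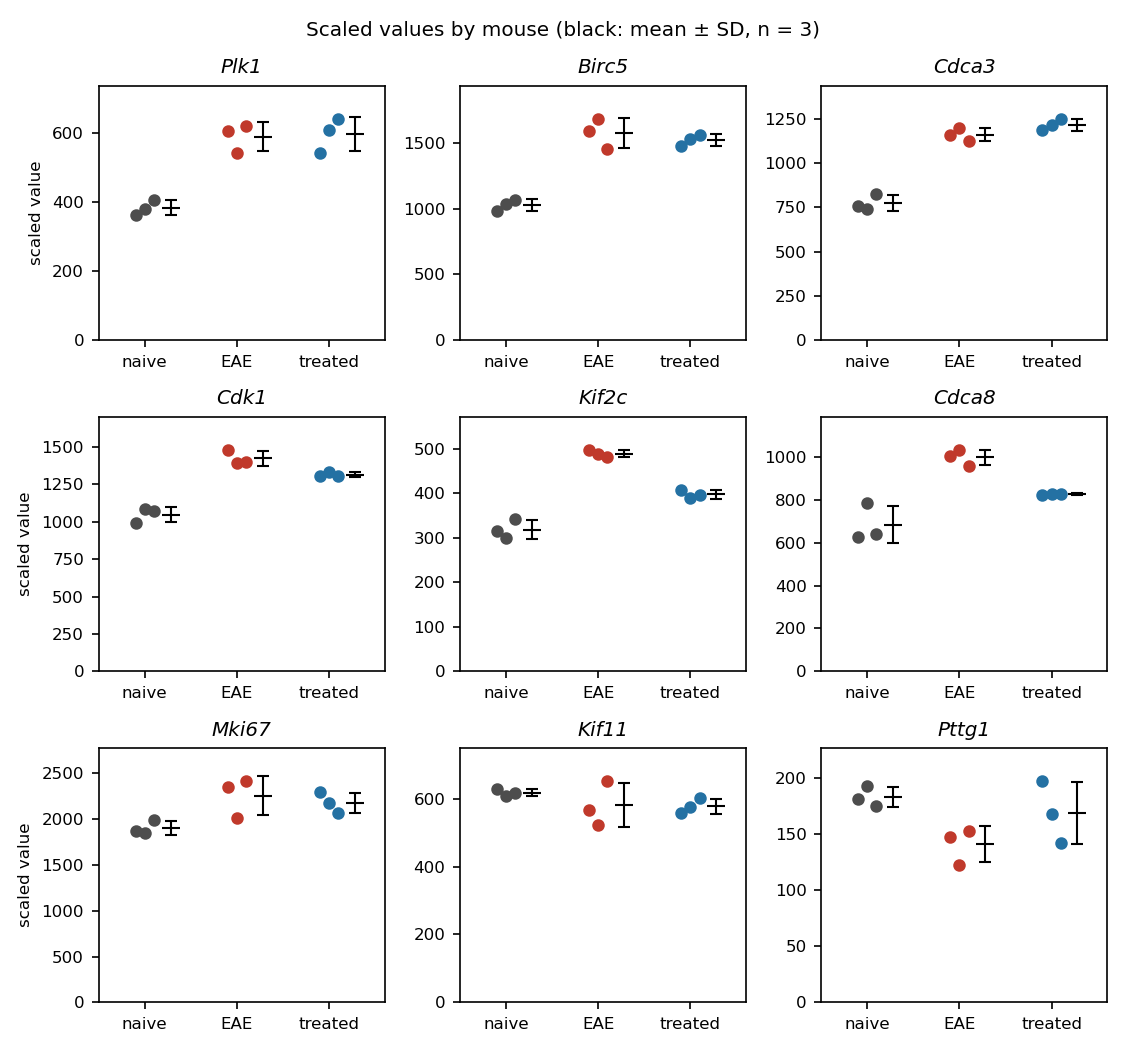
Scaled values of 9 genes (vertical axes, each from 0) in each mouse (points) of the naive, EAE and SR59230A-treated EAE groups, with the mean ± SD (n = 3) in black. The treated mice lie with the EAE mice for Plk1, Birc5 and Cdca3, and between the naive and EAE mice for Cdk1, Kif2c and Cdca8.

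Against naive mice, treated mice had 18 of the 56 genes higher and none lower, while 10.2% of all genes were called higher and 4.61% lower. This comparison shares its naive mice with that of EAE against naive and its treated mice with that of treated against EAE. The median log2 fold change was 0.26. Cdca3 was at 1185, 1214 and 1248, above every naive value (0.65 ± 0.09, adjusted p = 0.000856), and Plk1 rose by 0.64 ± 0.11 (adjusted p = 0.00351). Kif20a rose by 0.61 (adjusted p = 0.00612), at 1931, 2129 and 2465 against naive values of 1481, 1256 and 1532. There were 17 genes called against naive mice in both EAE and treated mice, 10 in EAE mice only, 1 in treated mice only and 28 in neither, but none of these splits tests a difference between EAE and treated mice. The gene called in treated mice only was Bub1b, at 1674, 1741 and 1765 (0.37 ± 0.08, adjusted p = 0.014). Of the 18 calls 12 held without each library in turn, and 4 held in every alternative but the chemosensory term. Those of Aurkb (naive replicate 1), Cdk1 (naive 1, treated 2), Incenp (naive 1 or 3, treated 2 or 3), Ube2c (naive 1, treated 2 or 3), Kif15 (naive 1 or 3, treated 1 or 2) and Hmmr (naive 1 or 2, any treated replicate) were lost without the library named, with adjusted p of 0.0504 to 0.101, and none of the 56 genes was called with the chemosensory term. In that fit 17 of the 18 stayed above 0, with a median log2 fold change of 0.59 against 0.43, and their median SE was 0.35 against 0.09. Over all 56 genes, 39 were above 0 in that fit, against 52 without the term, with a median of 0.27 against 0.26. Group means followed the order naive, treated, EAE in 38 of the 56 genes, against 19.1% of all genes, and naive, EAE, treated in 11, against 23.4%.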

How the data were processed

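RNA of LSK cells from 9 mice was analysed, 3 in each of 3 groups set by the labels. The deposited values are a score: whole numbers that the authors adjusted in a way the labels do not describe. Principal components of ln(value + 1) were computed on genes averaging at least 500. Components 1 to 6 explained 60.5% down to 2.75% of the variance, but component 7 only 7.65e-05% and component 8 only 6.77e-05%. The values thus lack 2 directions, which lie 99.4% and 99.8% within groups, and the spread between replicates may be understated. The submitters' processing notes name DESeq2, with no version or role. For the aligner, counting tool, strand use, build and annotation the entry is the same: not given in the sources used here. Depth is unknown.

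Values were divided by median-of-ratios factors (0.9005 to 1.107), and 13018 of 14940 genes were kept, those reaching a deposited value of 10 in 3 libraries. On log2(value + 1), limma-trend (limma 3.58.1, R 4.3.3) was fitted 2-sided with a coefficient for each group and the 2 missing directions as covariates, leaving 4 residual degrees of freedom, with Benjamini-Hochberg adjustment at 0.05. The 20 alternatives changed the scaling (none, upper quartile, and a trimmed mean of M values without count weights), pseudocount, filter, covariates, moderation and libraries. The genes and lists were chosen with earlier results of these data known. Values by library are given for the genes of each role with the largest and smallest fold change and the lowest adjusted p in EAE against naive mice, for well-known proliferation genes, and for the 4 genes with the lowest p between treated and EAE mice.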

Additional observations from a re-analysis of the deposited data

How the results depend on the processing

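No paired analysis was possible because the replicate numbers only reflect deposition order. The 27 genes called in EAE against naive mice became 10 without scaling (1059 of all genes called) and 18 with upper-quartile scaling (1717). They became 42 without the 2 covariates for the missing directions (3485 of all genes) and 0 with the chemosensory receptor share as a term (96 of all genes). The 18 called in treated against naive mice became 4 without scaling (1073 of all genes called), 9 with upper-quartile scaling (1789), 29 without the covariates (3920), 0 with the chemosensory share (25) and 37 with only the 6 libraries compared (4442), against 1932 of all genes in the fit reported, and the median of 0.26 became 0.14 without scaling, where the median of all genes was -0.11. Leaving out 1 library gave 18 to 33 calls in EAE against naive mice, 12 to 29 in treated against naive mice (29 without EAE replicate 3) and 0 to 0 in treated against EAE mice. Among the called genes Kif15 reversed with the chemosensory share, to -0.12 in EAE and -0.40 in treated mice against naive mice. The causes were not tested. The adjusted values and the unknown depth limit the precision of every comparison.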
